A study of Mus musculus with 12 samples.

Results

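The insulin-like growth factor (IGF) receptors and binding proteins were followed in neurospheres as a set of 10 genes: the ligand Igf1, the receptors Igf1r and Insr, the adaptors Irs1 and Irs2, and the binding proteins Igfbp2, Igfbp3, Igfbp4, Igfbp5 and Igfbp6. They were chosen by symbol, and all 10 were found among the 24525 genes of the count tables. Neurospheres are floating cultures of neural stem and progenitor cells (NSPCs), here C57BL/6 cells at passage P1 from E14.5 brains, grown with EGF, bFGF, N2 and B27 without vitamin A. The groups were 3 wild-type and 3 Ythdf2-/- input libraries, that is, fragmented mRNA set aside before m6A immunoprecipitation, and both groups shared strain, age, passage and medium. The knockout came from a LoxP-flanked Ythdf2 allele crossed to a Cre deleter line, so the deletion was already present in the embryos the cells were taken from. The 6 m6A-IP libraries were not analysed here.

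IGF1 and insulin bind the related tyrosine kinase receptors IGF1R and INSR. The activated receptors phosphorylate the docking proteins IRS1 and IRS2, which recruit PI3 kinase and switch on AKT and mTOR, a route to growth, survival and proliferation of neural progenitors. The secreted IGF binding proteins (IGFBPs) hold IGFs outside the cell and can limit or prolong their access to the receptor. Insulin is a standard ingredient of the N2 and B27 supplements, so neurospheres usually receive it from the medium. Ythdf2 binds m6A-modified mRNA and promotes its decay.

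Over all 6 libraries, Igfbp2, Igfbp4 and Igfbp3 spanned 221, 60.7 and 30.1 times from the lowest to the highest level, and their groups overlapped between genotypes. Most of that range came from wild-type library 3, since over the other 5 libraries the spans were 2.9, 3.48 and 2.32 times, near those of Irs1 (2.77) and Igfbp5 (2.6). Igfbp2 was the most abundant transcript per length of the set in 5 libraries and was nearly lost in wild-type library 3, in which Igfbp5, its neighbour on the chromosome, was the most abundant. Over all 6 libraries the receptors Igf1r and Insr varied least, while over the 5 without wild-type library 3 Insr and Irs2 did. For none of the 8 genes with enough reads for a test did the difference between wild type and Ythdf2-/- pass the threshold. Of all 13112 genes tested in the main edgeR fit, 0 passed it.

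The libraries held 11029827 to 13185778 counted reads. Ythdf2 gave 840, 961 and 999 reads in the wild-type libraries and 137, 198 and 138 in the Ythdf2-/- libraries, so its level in the knockout was 15.8% of wild type (edgeR quasi-likelihood test, adjusted p = 0.0547, 1.65e-30 to 1 over the alternatives on counts). Wild-type library 3 stood apart from the other 5: on the first principal component, which held 74.2% of the variance, it lay at 91 and the others between -30.6 and -6.04. Y-linked reads (over 3 in all on 4 genes) were present in wild-type libraries 1 and 2 and in Ythdf2-/- library 3, and not in the other 3. The study calls its replicates biological, but the labels do not tie them to separate embryos, so p-values measure only the spread between these samples. Microglial and endothelial markers were nearly absent: C1qa, C1qb, C1qc, Ptprc and Cldn5 had 0 reads in all 6 libraries.

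The promoters of 4 genes are shown because each pair (Igfbp2 with Igfbp5, Irs1 with Irs2) has related products and opposite shifts in wild-type library 3. The shifts of Irs1 and Irs2 were the smaller ones. Igfbp2 lies on the plus strand at chr1:72824480-72852474 and Igfbp5 on the minus strand at chr1:72858065-72874865 in GRCm38.p6, the assembly also called mm10. Both genes have 4 exons, and their ends face each other across 5590 bp with no other coding gene between them. Irs1 is on the minus strand at chr1:82233105-82291439 and Irs2 on the minus strand at chr8:10984681-11008929, with 2 exons each. The sequences are the 250 bases before each start, from RefSeq (GRCm38.p6), 5′ to 3′ on the strand of the gene, and capitals mark the GC box GGGCGG, the core of an Sp1 recognition site. The windows are chr1:72824230-72824479 for Igfbp2, chr1:72874866-72875115 for Igfbp5, chr1:82291440-82291689 for Irs1 and chr8:11008930-11009179 for Irs2.
Igfbp2: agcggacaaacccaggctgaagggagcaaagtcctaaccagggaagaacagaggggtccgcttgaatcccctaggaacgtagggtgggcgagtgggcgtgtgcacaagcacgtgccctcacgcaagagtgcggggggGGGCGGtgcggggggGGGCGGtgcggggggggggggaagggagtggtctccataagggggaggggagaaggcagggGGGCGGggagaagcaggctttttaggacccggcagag
Igfbp5: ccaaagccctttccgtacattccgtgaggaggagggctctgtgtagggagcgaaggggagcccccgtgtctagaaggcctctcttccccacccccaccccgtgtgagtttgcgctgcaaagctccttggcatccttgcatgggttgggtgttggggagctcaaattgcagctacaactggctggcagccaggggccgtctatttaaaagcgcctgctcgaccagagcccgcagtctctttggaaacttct
Irs1: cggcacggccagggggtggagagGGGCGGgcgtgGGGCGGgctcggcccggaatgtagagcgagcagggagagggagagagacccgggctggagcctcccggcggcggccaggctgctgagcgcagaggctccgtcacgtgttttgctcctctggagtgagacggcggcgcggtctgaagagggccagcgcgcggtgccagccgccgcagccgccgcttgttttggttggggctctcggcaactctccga
Irs2: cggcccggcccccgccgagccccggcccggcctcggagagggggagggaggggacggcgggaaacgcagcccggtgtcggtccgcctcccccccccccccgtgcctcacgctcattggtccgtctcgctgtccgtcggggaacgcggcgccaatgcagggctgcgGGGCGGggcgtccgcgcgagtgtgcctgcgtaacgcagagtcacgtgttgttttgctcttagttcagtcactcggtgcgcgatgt

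In these windows Igfbp2 had 3 GC boxes, Irs1 had 2, Irs2 had 1 and Igfbp5 had none, searched on both strands. Of 32851 RefSeq promoter windows of the same length, 32.7% held at least 1. TATAAA (12.4% of windows), the STAT site TTCNNNGAA (7.02%) and the FoxO site GTAAACA (3.17%) had no match in these 4 windows on either strand. The bases of these windows were G or C at 67.2% for Igfbp2, 58.8% for Igfbp5, 72.4% for Irs1 and 72.8% for Irs2, against a median of 52.4% over all windows. Insr had no entry in the promoter table. A second RefSeq start of Igfbp2, at base 72825387 of chromosome 1, had no GC box in its window, which was 56.4% G or C. A match describes letters only.

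Igf1, the ligand, was close to the limit of detection. It gave 1, 12 and 2 reads in the wild-type libraries and 4, 22 and 6 in the Ythdf2-/- libraries, or 0.0856, 0.916 and 0.183 against 0.341, 1.63 and 0.483 CPM (counts scaled to library size with TMM factors). The groups overlapped, and the gene did not pass the filter on low counts. Insulin transcripts were not detected: Ins1 and Ins2 had 0 reads in all 6 libraries. Igf2, the second IGF, gave 6 to 17 reads per library.

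**Figure D1:**
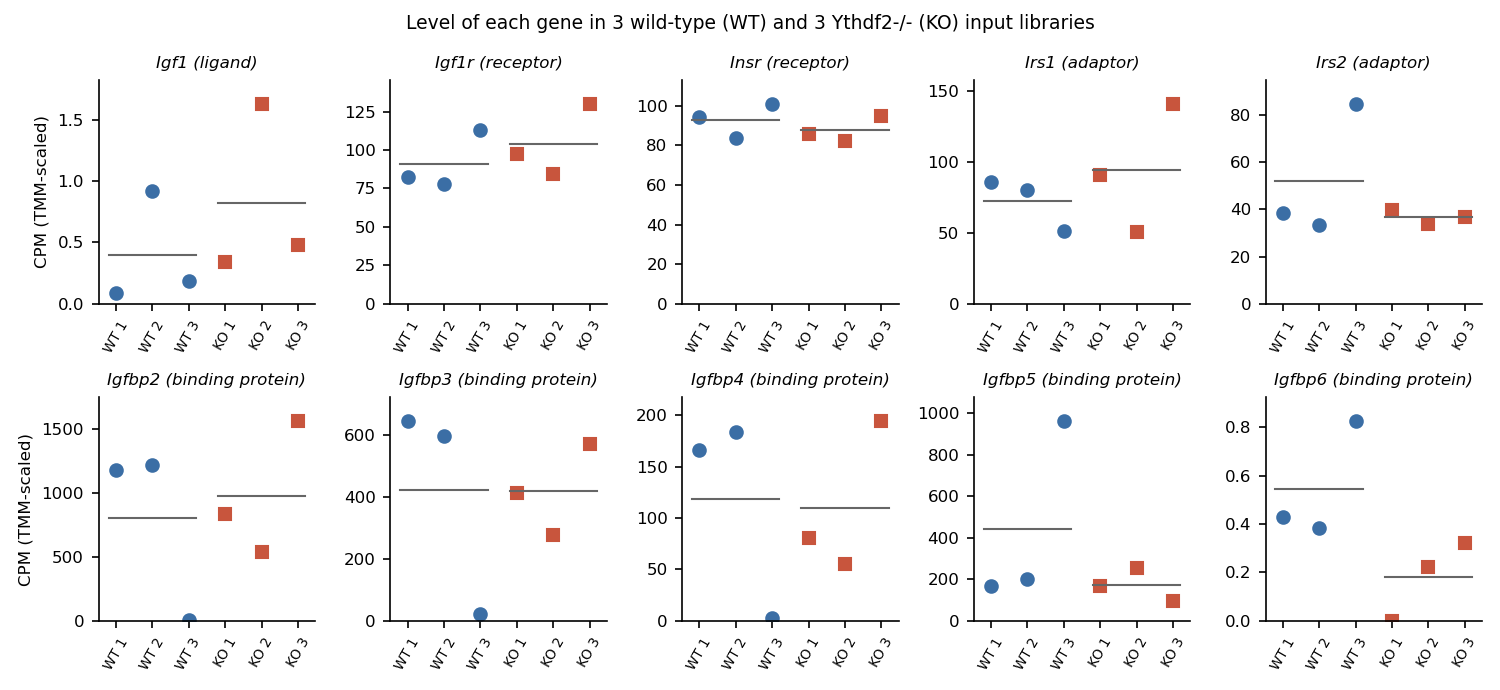
Level of each of the 10 genes (CPM, y axis from 0, a separate scale per panel) in the 3 wild-type (blue circles) and 3 Ythdf2-/- (red squares) libraries, with group means as grey lines. Wild-type library 3 has the lowest Igfbp2, Igfbp3 and Igfbp4 and the highest Irs2 and Igfbp5, and Insr is nearly level.

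Igf1r, the receptor for both IGFs, was read at 82.2, 78 and 113 CPM in wild type and at 97.6, 84.5 and 130 CPM in Ythdf2-/-. The means were 91 ± 18.9 and 104 ± 23.5 CPM (SD, n = 3 each), and the groups overlapped because of wild-type library 3. The log2 fold change (Ythdf2-/- relative to wild type here and throughout) was 0.19 with an SE of 0.223 (edgeR, adjusted p = 0.999). Without wild-type library 3 every Ythdf2-/- value lay above both wild-type values, and the log2 fold change was 0.38 (SE 0.189, 95% interval -0.08 to 0.84, adjusted p = 0.364). Without Ythdf2-/- library 3 it was 0.0022. Over the 15 alternatives that could be fitted for Igf1r the adjusted p ran from 0.108 to 1.

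Insr, the insulin receptor, was the steadiest gene of the set. Its CPM were 94.5, 83.9 and 101 in wild type and 85.9, 82.3 and 94.7 in Ythdf2-/-, with means of 93 ± 8.46 and 87.6 ± 6.4 (SD, n = 3). The log2 fold change was -0.09 with a 95% interval of -0.39 to 0.22 (edgeR, adjusted p = 0.999). On the shallow FPKM values the log2 fold change was -0.86 on log2(FPKM + 1) and -1.35 on log2(FPKM + 0.1), beyond that interval (limma, adjusted p = 0.907 to 0.998). The SE of 0.128 was low: 93.1% of the 13112 genes tested had one at least as large. Per length, Igf1r was at 0.682, 0.729 and 0.878 of the Insr level in wild type and at 0.891, 0.805 and 1.08 in Ythdf2-/-, and these ranges overlapped.

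Irs1 and Irs2, the docking proteins, moved in opposite directions in wild-type library 3. Measured from the median of the other 5 libraries, 15.3% of the genes tested lay at least as far below as Irs1. For Irs2, 6.57% lay at least as far above. Irs1 was at 86, 80.3 and 51.3 CPM in wild type and 91, 50.9 and 141 CPM in Ythdf2-/-. The high value of 141 came from Ythdf2-/- library 3, and the 2 low values from wild-type library 3 and Ythdf2-/- library 2. The log2 fold change of Irs1 was 0.38 (SE 0.392, adjusted p = 0.999 in edgeR), 0.18 without wild-type library 3 and 0.69 without Ythdf2-/- library 2, and it turned to -0.03 without Ythdf2-/- library 3.

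Irs2 was at 38.5, 33.5 and 84.7 CPM in wild type and 39.9, 33.6 and 36.9 CPM in Ythdf2-/-. Apart from wild-type library 3, the values lay between 33.5 and 39.9, with no separation by genotype. Its log2 fold change of -0.50 (SE 0.365, edgeR, adjusted p = 0.999) turned to 0.03 (SE 0.127, 95% interval -0.28 to 0.34) without that library. Irs2 took 30.9%, 29.4% and 62.2% of the reads on both adaptors in wild type and 30.5%, 39.8% and 20.7% in Ythdf2-/-. The exact 95% binomial intervals were 59.7% to 64.7% in wild-type library 3 and 19% to 22.4% in Ythdf2-/- library 3, and they cover counting error only. The strand setting of the counting is not given in the sources used here, and 162 bp of Irs2 exon overlap the non-coding gene 9530052E02Rik on the opposite strand, so the Irs2 count is uncertain by reads from that gene.

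Igfbp2, a binding protein known to be abundant in developing brain, gave 13754, 15934 and 77 reads in wild type and 9751, 7248 and 19364 in Ythdf2-/-. In CPM these were 1177, 1216 and 7.05 against 831, 537 and 1558. The lowest value, in wild-type library 3, was 167 times below the median of the other 5 libraries. On log2(CPM + 0.5) its distance from this median was -7.29, the farthest below of all 13112 genes tested, and the median distance over all genes was 0.435 in either direction. For Igfbp2 the log2 fold change was 0.29 with a 95% interval of -3.00 to 3.58 (edgeR, adjusted p = 0.999). It turned to -0.29 (-1.33 to 0.74) without wild-type library 3 and to -0.23 without Ythdf2-/- library 3.

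Igfbp3, the main IGF carrier of blood serum, followed the same order of libraries at the low end. Its CPM were 645, 598 and 21.4 in wild type and 412, 278 and 571 in Ythdf2-/-. The group means were 422 ± 347 and 420 ± 147 CPM (SD, n = 3), and the log2 fold change was -0.0041 (SE 1.02, edgeR, adjusted p = 0.999). When wild-type library 3 was left out, all Ythdf2-/- values lay below the 2 wild-type values, with a log2 fold change of -0.56 (SE 0.287, 95% interval -1.26 to 0.13, adjusted p = 0.371). It was positive, from 0.01 to 0.44, with each of wild-type libraries 1 and 2 and Ythdf2-/- libraries 1 and 2 left out in turn.

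Igfbp4, which restrains IGF action until the protease PAPP-A cuts it, was at 166, 184 and 3.2 CPM in wild type and 80.8, 55.8 and 194 CPM in Ythdf2-/-. Wild-type library 3 held 35 reads, and Ythdf2-/- library 3 was as high as wild-type libraries 1 and 2. Its log2 fold change was -0.09 (SE 1.17, edgeR, adjusted p = 0.999), -0.67 (SE 0.496) without wild-type library 3 and -0.79 without Ythdf2-/- library 3. With each of the other 4 libraries left out in turn it was 0.09 to 0.38. PAPP-A itself had few transcripts: Pappa gave 0 to 8 reads per library.

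Igfbp5, a binding protein that also attaches to extracellular matrix, went the other way. It was at 170, 200 and 961 CPM in wild type and 168, 253 and 97.3 CPM in Ythdf2-/-. The value of 961 in wild-type library 3 was 5.65 times the median of the other 5 libraries, and 1.14% of the genes tested lay at least as far above that median. The log2 fold change of -1.36 was the largest of the 8 genes tested (SE 0.75, 95% interval -3.18 to 0.45, unadjusted p = 0.117, adjusted p = 0.999 in edgeR). Leaving out wild-type library 3 brought it to -0.10 (SE 0.369).

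Igfbp6, which prefers IGF2, gave 5, 5 and 9 reads in wild type and 0, 3 and 4 in Ythdf2-/-. These counts did not overlap between genotypes, but the gene did not pass the filter on low counts and was not tested. The 0 in Ythdf2-/- library 1 allows up to 0.255 CPM (3 of 11752464 reads).

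Per exon length, Igfbp2, Igfbp3 and Igfbp4 kept their order in the 5 libraries other than wild-type library 3, and the order of the other genes varied. In RPKM, which is CPM divided by the exon length in kilobases, Igfbp2 ranged from 378 to 1099 over those 5 libraries, Igfbp3 from 114 to 264, Igfbp4 from 26.7 to 92.8 and Igfbp5 from 16.6 to 43.2. Igfbp2 lay above Igfbp3 and Igfbp3 above Igfbp4 without overlap, while Igfbp4 and Igfbp5 overlapped, with Igfbp5 the higher in Ythdf2-/- library 2 (43.2 against 26.7). The receptors and adaptors came next, with overlapping ranges over all 6 libraries: 8.76 to 10.7 RPKM for Insr, 5.56 to 15.4 for Irs1, 6.51 to 10.9 for Igf1r and 4.93 to 12.5 for Irs2. The place of Irs2 depended on the gene length used: its mean over the 6 libraries was 6.55 RPKM, the lowest of these 4, and 11.1 RPKM, the highest, with the effective length of the deposited table. Igfbp6 (0 to 0.639) and Igf1 (0.0105 to 0.2) were lowest and overlapped. In wild-type library 3 the order was different, with Igfbp5 at 164 RPKM, Irs2 at 12.5, Insr at 10.7, Igf1r at 9.41, Igfbp3 at 8.75, Irs1 at 5.6, Igfbp2 at 4.97 and Igfbp4 at 1.53.

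The make-up of the binding protein transcripts was different in wild-type library 3. Of the RPKM of Igfbp2 to Igfbp6, Igfbp2 took 69%, 70.1% and 2.76% in wild type and 71.3%, 67.3% and 76.2% in Ythdf2-/-. Igfbp5 took 2.42%, 2.79% and 91.2% in wild type and 3.48%, 7.69% and 1.15% in Ythdf2-/-. The summed level of the 5 genes was 1203, 1224 and 180 RPKM in wild type and 822, 562 and 1442 RPKM in Ythdf2-/-. The sum was lowest in wild-type library 3, where Igfbp5 was highest, and next lowest in Ythdf2-/- libraries 2 and 1.

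**Figure D2:**
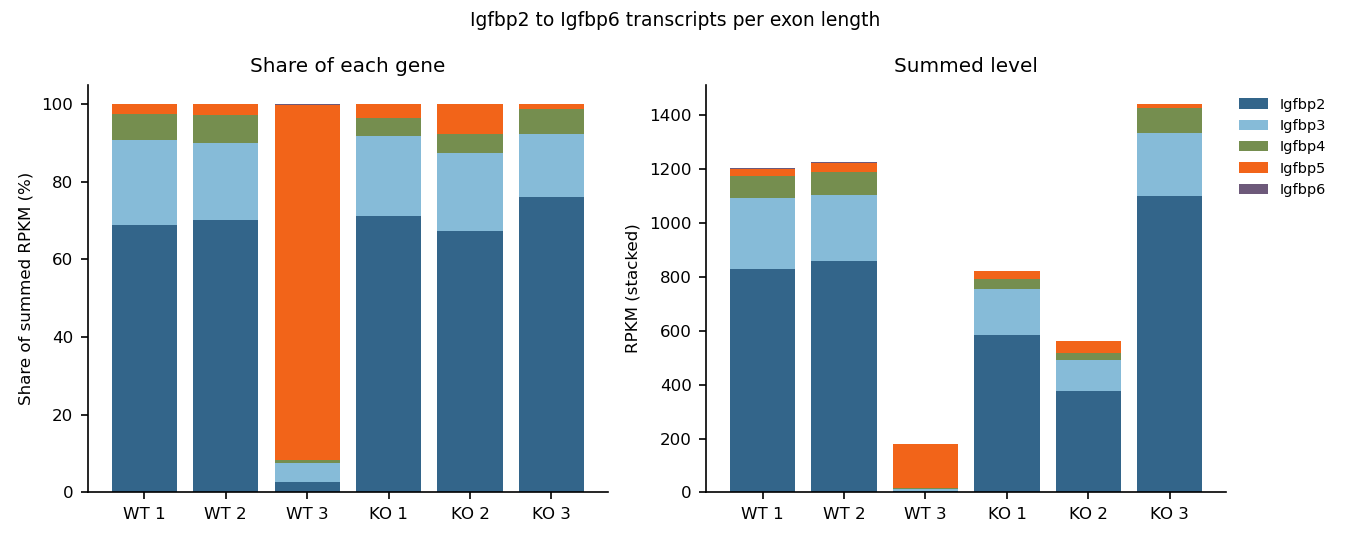
Left, the share of each binding protein gene in the summed RPKM of Igfbp2 to Igfbp6 (%) per library, and right, the RPKM themselves, stacked. Igfbp2 makes up 67.3% to 76.2% in 5 libraries, while Igfbp5 makes up 91.2% in wild-type library 3, at a summed level of 180 RPKM.

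Y-linked reads also went along with the levels of some of the set, at a share near that of all genes. Igfbp2 was at 1177 to 1558 CPM in the 3 libraries with such reads and at 7.05 to 831 CPM in the other 3. Igfbp3 was at 571 to 645 against 21.4 to 412 CPM, and Igfbp4 at 166 to 194 against 3.2 to 80.8 CPM. Of the 8 genes tested these 3 did not overlap, with or without wild-type library 3, and 26.8% of all genes tested did not overlap in this split with all 6 libraries and 33.3% without wild-type library 3. With a term for Y-linked reads in the edgeR fit, the log2 fold changes were 3.35 for Igfbp2 (95% interval -1.57 to 8.28), 1.90 for Igfbp3 (-1.05 to 4.86) and 2.04 for Igfbp4 (-0.76 to 4.85). In that fit Igfbp5 (-1.56, unadjusted p = 0.00324, adjusted p = 0.248) and Irs1 (0.62, unadjusted p = 0.0441, adjusted p = 0.446) were below an unadjusted 0.05, which 11.0% of all genes were. The libraries without Y-linked reads include wild-type library 3, so the parts of that library and of the Y-linked reads cannot be told apart in this fit.

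Over the set, 0 of 8 genes tested passed an adjusted p of 0.05 in edgeR, as did 0% of all 13112 genes, and 0 of 8 had an unadjusted p under 0.05, against 3.63% of all genes. DESeq2 also called none of the set, against 31 of the 13112 genes. Its unadjusted p for Igfbp5 was 0.0492, and 560 genes were under 0.05 in that fit. No tested gene of the set had groups that did not overlap, against 10.2% of all genes. The fitted change was positive for 3 of the 8 and negative for 5, and its log2 median was -0.04, beside -0.01 over all genes. Without wild-type library 3, when 9 of the set could be tested, 0 passed an adjusted p of 0.05 (0.0151% of all genes did) and 0 an unadjusted one (16.6%), and 2 (Igf1r and Igfbp3) did not overlap (38.9%). Without Ythdf2-/- library 2, 2 of 8 (Irs1 and Igfbp5) did not overlap, as did 22.1% of all genes. The SEs of Igfbp2 (1.36), Igfbp4 (1.17) and Igfbp3 (1.02) were among the largest of all genes, with 0.206%, 0.541% and 1.5% of genes at or above them.

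**Figure D3:**
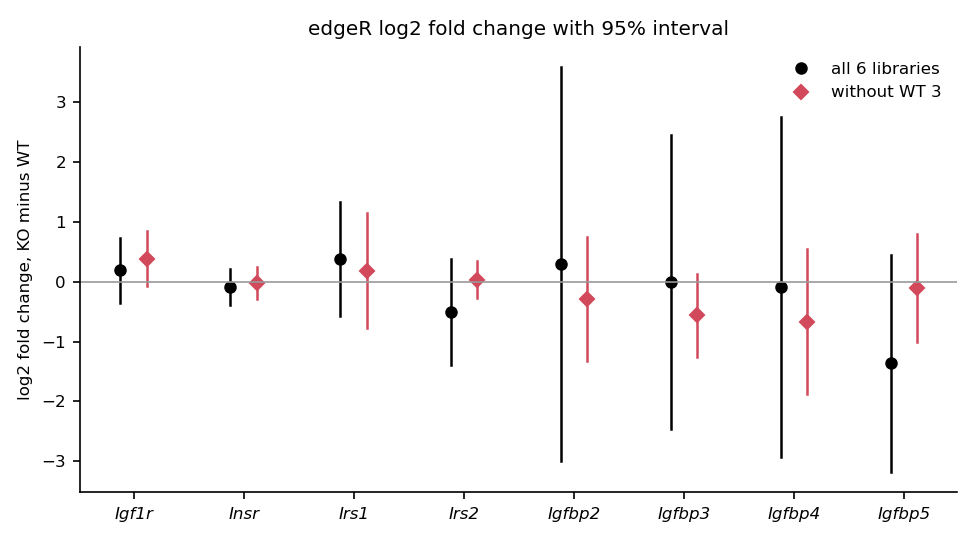
Log2 fold change of the 8 genes tested (y axis, Ythdf2-/- minus wild type) with 95% intervals from edgeR, for all 6 libraries (black circles) and without wild-type library 3 (red diamonds). Every interval includes 0, and those of Igfbp2, Igfbp3, Igfbp4 and Igfbp5 narrow when wild-type library 3 is left out.

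Cell type markers moved with the binding proteins in wild-type library 3. The summed level of 8 astroglial markers, with Sparcl1 the highest on average over the libraries, was 9558 CPM there, against 1623 to 4804 CPM in the other 5 libraries, and 5 of the 8 had their highest value there. Gfap gave 3046 CPM of that sum, against 5.55 to 625 CPM in the other 5 libraries. The 10 oligodendrocyte lineage markers, with Olig1 the highest on average, summed to 4250 CPM against 1732 to 2164 CPM, with 6 highest and 3 lowest (Olig1, Olig2 and Cspg4) in that library. The 10 neural progenitor markers, led by Slc1a3, summed to 5628 CPM against 8031 to 9235 CPM, with 3 lowest and 6 highest there. The 10 neuronal markers, led by Map2, summed to 1965 CPM against 1233 to 1454 CPM, with 5 highest and 2 lowest there. Mesenchymal and mural markers, led by Pdgfrb, summed to 38.3 CPM against 5.78 to 10.8 CPM, of which Pdgfrb gave 31.8 CPM, and the other 9 summed to 6.59 CPM against 4.69 to 9.46 CPM. Microglial and macrophage markers, led by Cd68, summed to 2.81 to 5.88 CPM and endothelial markers, led by Kdr, to 1.28 to 4.02 CPM over all 6 libraries. The part of these cell types in the levels of the binding proteins was not tested. In bulk libraries, fewer cells of a type and less RNA per cell cannot be told apart.

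**Figure D4:**
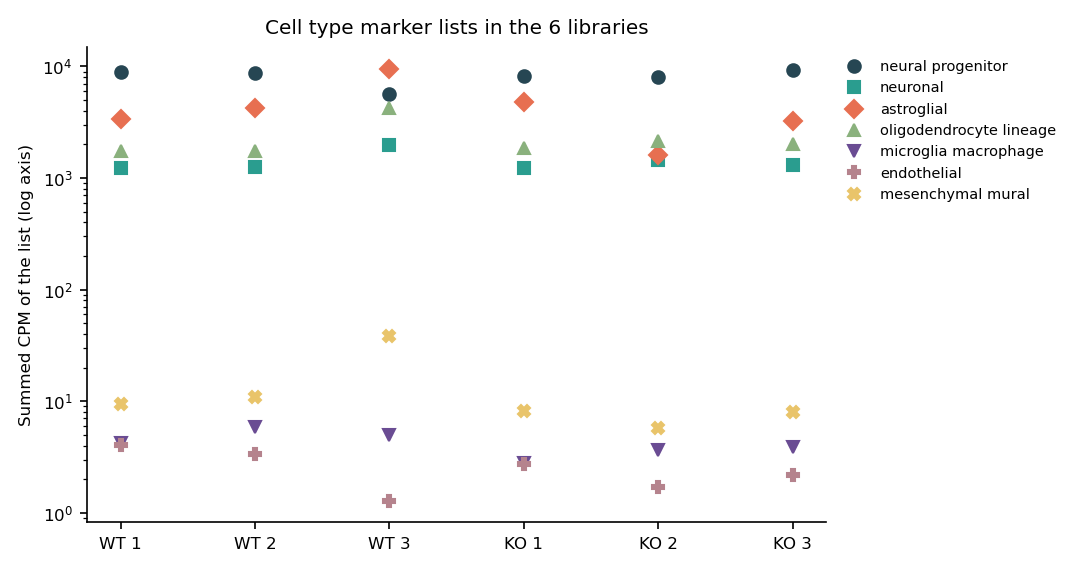
Summed CPM (log axis) of 7 cell type marker lists in each library. In wild-type library 3 the astroglial list reaches 9558 CPM and lies above the neural progenitor list at 5628 CPM, and the microglial and endothelial lists stay below 6 CPM in all 6 libraries.

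The other genes of the pathway were read from 7 lists of 54 genes, of which 45 could be tested. In edgeR 0 of the 45 passed an adjusted p of 0.05, as did 0% of all genes. An unadjusted p under 0.05 was found for 4 (3.63% of all genes), all lower in Ythdf2-/-: Socs3, Igf2bp3, Igfbpl1 and Grb10. The median log2 fold change of the 45 was 0.03. Without wild-type library 3 again 0 passed the adjusted threshold (0.0151% of all genes did), and 13 of the 45 had an unadjusted p under 0.05, as did 16.6% of all genes.

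Among the other ligands and receptors, the 3 tested of 6 had a median log2 fold change of -0.25, which turned to 0.22 without wild-type library 3. Igf2r, which clears IGF2 from the cell surface, was at 64.4 ± 16.9 CPM in wild type and 54.2 ± 11.2 CPM in Ythdf2-/- (SD, n = 3). Its log2 fold change was -0.25 (SE 0.253) and did not turn without wild-type library 3, at -0.45 (SE 0.173, unadjusted p = 0.0397, adjusted p = 0.279 in edgeR). Irs4, a further adaptor, was at 1.03, 1.53 and 8.05 CPM in wild type against 3.24, 0.814 and 0.805 CPM, and its log2 fold change of -1.12 turned to 0.32 without wild-type library 3. Igf2, named above, had a log2 fold change of 0.18 (SE 0.434).

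Of the 4 further binding proteins, Igfbp1 had 0 reads in all 6 libraries and Igfals, the serum partner of IGFBP complexes, had 0 to 4. Igfbpl1 was at 3.77, 3.89 and 7.32 CPM in wild type and 2.22, 2.22 and 2.09 CPM in Ythdf2-/-, with no overlap (log2 fold change -1.19, SE 0.352, unadjusted p = 0.0136, adjusted p = 0.999 in edgeR, 0.0702 to 1 over the alternatives on counts). This became -0.81 (SE 0.253) without wild-type library 3. Igfbp7, a low-affinity binder, was at 1.94 ± 0.522 CPM in wild type and 1.58 ± 0.301 CPM in Ythdf2-/-.

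Of the proteases that cut IGFBPs and the inhibitors of those proteases, 3 of 5 were tested, with a median of 0.17. The protease Htra1 was highest in wild-type library 3, at 139 CPM against 50.2 to 72.9 CPM in the other 5 libraries. Stc1 and Stc2, which block PAPP-A, were lowest there, at 0.824 and 2.01 CPM. Their group means were 2.76 ± 1.74 against 3.11 ± 0.209 CPM for Stc1 and 5.89 ± 3.64 against 8.13 ± 3.63 CPM for Stc2. Leaving out wild-type library 3 turned the log2 fold change of Stc1 from 0.17 to -0.26 and that of Htra1 from -0.39 to 0.23, and brought that of Stc2 from 0.46 to 0.06.

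In the list of adaptors and feedback genes, 10 of 11 were tested, 5 with a positive and 5 with a negative change and a median of -0.01. Socs3, a feedback inhibitor of cytokine and insulin receptor signalling, gave 472, 774 and 5200 reads in wild type and 179, 208 and 43 in Ythdf2-/-. Every Ythdf2-/- value lay below every wild-type value. The log2 fold change was -4.07 (SE 1.17, unadjusted p = 0.012, adjusted p = 0.999 in edgeR, 0.00815 to 1 over the alternatives on counts) and -2.13 (SE 0.559, adjusted p = 0.199) without wild-type library 3. Grb10, an adaptor that restrains both receptors, was at 6.2 ± 1.5 CPM in wild type and 3.57 ± 0.955 CPM in Ythdf2-/- (log2 fold change -0.79, SE 0.321, adjusted p = 0.999, 0.0513 to 1 over the alternatives on counts). The phosphatases Ptpn11 and Ptpn1 and the adaptor Gab1 had the highest levels of this list, with log2 fold changes of -0.09, 0.02 and 0.11, which became 0.03, -0.06 and 0.50 without wild-type library 3.

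All 21 genes of the PI3K, AKT and mTOR list were tested, with a positive change for 13 and a negative one for 8, a log2 median of 0.04 (0.16 without wild-type library 3) and none below an unadjusted 0.05. Pik3r1, the regulatory subunit that docks on the IRS proteins, was at 282, 290 and 509 CPM in wild type and 452, 368 and 422 CPM in Ythdf2-/-. Its log2 fold change was 0.20 (SE 0.266, adjusted p = 0.999 in edgeR, 0.0474 to 1 over the alternatives on counts). It was 0.53 (SE 0.127, unadjusted p = 0.00518, adjusted p = 0.182 in edgeR) without wild-type library 3. Akt1 was at 234 ± 14.5 and 239 ± 9.32 CPM, and Gsk3b at 262 ± 68.5 and 271 ± 51.2 CPM.

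The 4 FoxO factors, targets of AKT, had a positive change in 3 and a negative one in 1. The positive log2 fold changes were 0.11 for Foxo1, 0.14 for Foxo3 and 0.12 for Foxo4. Without wild-type library 3 these were 0.50, 0.46 and 0.44, with adjusted p of 0.283, 0.219 and 0.278 in edgeR. These 3 had an unadjusted p under 0.05 in that fit, as did 16.6% of all genes. In all 3 genes wild-type library 3 was higher than the other wild-type libraries, at 30.7, 40.5 and 71.5 CPM.

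The Igf2 mRNA binding proteins also bind m6A-modified RNA, and 2 of their 3 genes were tested. Igf2bp3 was at 84.7, 63.5 and 32.7 CPM in wild type and 8.7, 21.3 and 18 CPM in Ythdf2-/-, with no overlap. Its log2 fold change was -1.91 (SE 0.46, unadjusted p = 0.00538, adjusted p = 0.999 in edgeR, 0.0345 to 1 over the alternatives on counts), and -2.20 (SE 0.353, adjusted p = 0.151) without wild-type library 3. Igf2bp2 was at 26.2 ± 13.7 CPM in wild type and 15.9 ± 5.91 CPM in Ythdf2-/- (log2 fold change -0.72, SE 0.479). Igf2bp1 had 0 or 1 read per library.

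**Figure D5:**
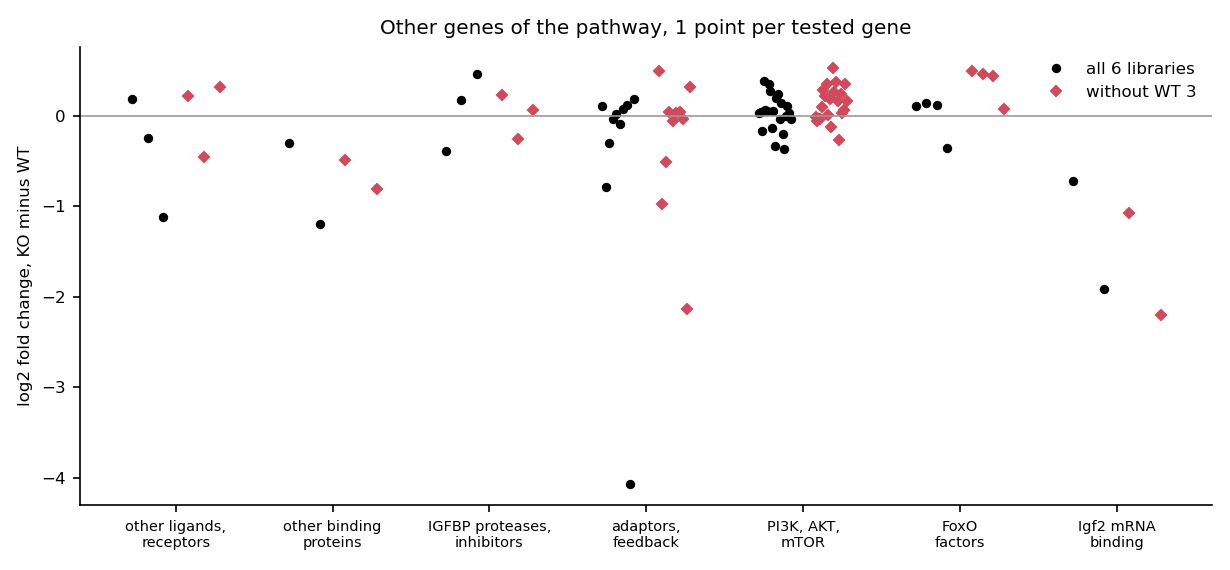
Log2 fold change (y axis, Ythdf2-/- minus wild type) of each tested gene of the 7 pathway lists, for all 6 libraries (black circles) and without wild-type library 3 (red diamonds). Most points lie near 0, and Socs3 lies at -4.07 and moves to -2.13 without wild-type library 3.

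The number of GGACT letters, the commonest form of the m6A consensus, differed widely within the set. In the longest coding GENCODE M21 transcript, read on the sense strand, Igf1r held 14, Insr 13, Irs1 12 and Irs2 11, or 1.23, 1.39, 1.31 and 1.74 per kb. Igfbp6 held 3, Igfbp4 held 6 and Igfbp5 held 7, or 2.7, 1.57 and 1.17 per kb. Igfbp3 held 1 and Igf1 held 2, or 0.413 and 0.284 per kb, and Igfbp2 held 0 in 1307 bases. Of the 12288 genes tested with such a transcript, 93.4% held at least 1, with a median of 1.04 per kb. These counts describe sequence and not methylation.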

How the data were processed

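RNA-seq input libraries of neurospheres were analysed, 3 wild-type and 3 Ythdf2-/-, grouped by their labels. Library preparation was strand-specific. The methods name TopHat and mm10, and the submitters' processing notes name Bowtie2 2.2.9, RSEM 1.2.15 and featureCounts. The authors deposited raw counts per gene without normalization. They also deposited expected counts and FPKM, whose expected counts sum to 1.97% to 2.4% of the raw counts, so these values rest on few reads and were used only as an alternative.

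Counts of 13112 genes that passed filterByExpr were tested in edgeR 4.0.16 (TMM, robust glmQLFit, glmQLFTest, genotype as the only term, Benjamini-Hochberg adjustment over all genes) in R 4.3.3. DESeq2 1.42.0, limma 3.58.1 on voom values and limma on log2(FPKM + 1) were alternatives. FPKM fold changes on that scale understate the change of low genes. RPKM used the curated RefSeq exon length of each gene. With 3 libraries against 3, an exact permutation test cannot go below 0.1.

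Of the 10 genes, 8 passed the filter. The members and lists were chosen with earlier results of these data known. All 10 members are named. In each pathway list the 3 genes of highest mean CPM and those with an unadjusted p under 0.05 are named, and in each marker list the highest marker and those at 0. Other genes in the text (Ins1, Ins2, Pappa, Igfbp1, Igfals, Igf2bp1, Gfap, Olig2, Cspg4) were named after their values were seen.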

Additional observations from a re-analysis of the deposited data

How the results depend on the processing

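Under 17 alternative settings, which gave 132 log2 fold changes for the 8 genes tested, 106 kept their direction and none passed an adjusted p of 0.05 (smallest 0.108). The other 26 changed direction, 10 of them for Igfbp3 and 10 for Igfbp4. In the main fit these 2 genes were near 0 for their SEs, at -0.0041 (SE 1.02) and -0.09 (SE 1.17). The cause of the changes was not tested beyond the libraries named. Igf1r, Insr and Igfbp5 kept their direction in every setting fitted, but not their size. Igf1r ran from 0.0022 to 0.38, Insr from -1.35 to -0.01 and Igfbp5 from -1.75 to -0.10. Irs2 moved from -0.50 to -1.47 on log2(FPKM + 0.1). Leaving out each library in turn gave -0.03 to 0.69 for Irs1, -0.74 to 0.03 for Irs2, -0.29 to 0.72 for Igfbp2, -0.56 to 0.44 for Igfbp3 and -0.79 to 0.38 for Igfbp4. Within these, Igfbp2 was at -0.29 without wild-type library 3 and -0.23 without Ythdf2-/- library 3. Without wild-type library 1 or 2, or Ythdf2-/- library 1 or 2, Igfbp3 was at 0.44, 0.33, 0.01 and 0.22 and Igfbp4 at 0.24, 0.38, 0.09 and 0.23. Limma-voom with sample quality weights, which gave wild-type library 3 a weight of 0.0957, turned Irs2 to 0.11 and Igfbp2 to -0.29. For Igfbp3 and Igfbp4, limma-voom gave 1.03 and 0.99, the term for Y-linked reads 1.90 and 2.04, limma on log2(FPKM + 1) 1.11 and 1.10 with or without the filter, and limma on log2(FPKM + 0.1) 2.17 and 2.15. Igfbp2 kept its direction but moved from 0.29 to 2.08 in limma-voom and to 1.27 on log2(FPKM + 0.1). Igf1r and Irs1 had no value in the filtered FPKM fits, and without the filter Irs1 was at 1.14 (adjusted p 0.907).

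Genes with an adjusted p under 0.05 numbered 0 in the edgeR fit, 1 with RLE size factors, 1 without the filter on low counts, 1 with at least 10 reads in every library, 13 with the term for Y-linked reads, 151 with quality weights and 31 in DESeq2. Leaving out each library gave 0 to 2. None was a member in any setting. Pathway genes past that threshold were Socs3 with the Y-linked term (1 of 45), Pik3r1 and Igf2bp3 with quality weights (2), and Socs3 and Igf2bp3 in DESeq2 (2). Members whose groups did not overlap numbered 0 to 2 when each library was left out, with 2 without wild-type library 3 (38.9% of all genes did not overlap) and 2 (Irs1 and Igfbp5) without Ythdf2-/- library 2 (22.1%). With the effective length of the deposited table, Irs2 was at 11.1 RPKM in place of 6.55, and the other 9 genes moved by less than 1 SD.

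Same-numbered libraries did not deviate together, with correlations of -0.25, -0.24 and -0.39, and differently numbered ones gave -0.19 to 0.40. With 3 libraries per group, 1 of them far from the rest, this check cannot decide whether the numbers pair the samples. With the replicate number as a replicate block, 0 members and 0 genes passed the threshold, Igfbp3 was at 0.52 and Igfbp4 at 0.15. Igf1 and Igfbp6 had too few reads for the filter. Fitted with no filter on low counts, they had log2 fold changes of 1.01 (SE 0.94) and -1.48 (SE 0.866), both with an adjusted p of 0.996, and Igf1 was at 0.68 (SE 1, adjusted p 0.765) without wild-type library 3.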
